A study of Mus musculus with 4 samples.

Results

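The genes described here are the reprogramming factors Pou5f1 (the gene of Oct4, Entrez gene 18999), Sox2 (20674), Klf4 (16600) and Myc (17869), with the MYC relatives Mycn (18109) and Mycl (16918). They were taken by symbol from an expression table of 23185 named genes, in which all 6 had 1 probe set. The table came from 4 Affymetrix arrays, 1 for each population of mouse cells, all labelled as lung and adult. Day0 was labelled as club cells, secretory cells of the airway lining, taken without culture. The 3w+Dox population, called Club-iPL cells by the submitters, had been kept for 3 weeks with doxycycline. Withdrawn cells, as the 3w+Dox+2w-Dox population is named here, then spent 2 weeks in medium free of the drug, and the last population was Club-iPS cells, induced pluripotent stem cells made from club cells. The series title speaks of interrupted reprogramming, a procedure in which doxycycline drives transgenic copies of Oct4, Sox2, Klf4 and Myc for a limited time. The mouse strain, the transgene and its promoter, the passage of the iPS cells and the number of animals or clones behind each array are not stated in the labels. A probe set reads exons of a gene, so a transcript of a transgene and one of the cell's own gene cannot be told apart.

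Oct4 is a POU-domain factor that binds the octamer motif, often side by side with Sox2, a factor with an HMG box, and the pair holds pluripotent cells in their undifferentiated state. Sox2 is also made by airway epithelium, where it maintains secretory and ciliated cells. Klf4 is a zinc finger factor that binds CACCC and GC-rich elements and is known in the body for terminal differentiation of barrier epithelia. Myc, Mycn and Mycl are helix-loop-helix factors that bind the E-box as partners of Max and raise genes of ribosome biogenesis, nucleotide synthesis and cell growth, and each of them can serve in reprogramming. Mycn is known from the embryonic lung bud and, beside Myc, from pluripotent cells.

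Promoter sequences are shown for the reprogramming factors whose upstream stretch held the binding letters of another factor of the same set. The RefSeq promoter table (GRCm38.p6) matched 5 of the 6 genes, with 6 start sites, and Myc is named only. In each line the 250 bases before the annotated start are given from 5′ to 3′ on the strand of the gene, and capitals mark matches on either strand to ATGCAAA (first letters of the octamer bound by Oct4), ACAATG (a SOX core), CACGTG (the E-box of MYC and MAX) or CACCC (the box bound by KLF factors). Sox2 lies on the plus strand at chr3:34649745-34649994, Klf4 on the minus strand at chr4:55532476-55532725, and the first start of Pou5f1 on the plus strand at chr17:35505782-35506031.
Sox2: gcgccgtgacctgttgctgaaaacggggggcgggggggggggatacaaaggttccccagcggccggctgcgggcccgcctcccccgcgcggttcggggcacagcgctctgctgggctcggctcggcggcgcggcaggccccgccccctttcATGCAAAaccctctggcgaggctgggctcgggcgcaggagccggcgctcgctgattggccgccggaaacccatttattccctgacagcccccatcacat
Klf4: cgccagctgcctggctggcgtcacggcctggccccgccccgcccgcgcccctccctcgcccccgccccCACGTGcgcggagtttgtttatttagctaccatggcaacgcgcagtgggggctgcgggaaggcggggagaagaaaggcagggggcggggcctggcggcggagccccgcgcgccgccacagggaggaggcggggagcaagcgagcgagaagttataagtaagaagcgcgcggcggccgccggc
Pou5f1: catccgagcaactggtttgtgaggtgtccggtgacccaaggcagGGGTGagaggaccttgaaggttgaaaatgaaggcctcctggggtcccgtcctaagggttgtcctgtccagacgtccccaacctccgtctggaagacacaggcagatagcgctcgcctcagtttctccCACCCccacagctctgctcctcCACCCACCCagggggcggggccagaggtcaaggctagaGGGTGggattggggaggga

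The Sox2 stretch held 1 match to ATGCAAA, beginning 99 bases before the start, letters that 4.12% of 32851 mouse promoters held in the same window. The last letter of the octamer was not searched for, and the base after this match is an A, so no full octamer is shown. The Klf4 stretch held 1 E-box, beginning 182 bases before the start, which was found in 6.02% of promoters. The Pou5f1 stretch held 5 matches to CACCC, a pair of which overlap, and that short motif was found in 52.0% of promoters. The second listed start of Pou5f1 held 1 ACAATG (10.7% of promoters), and the Mycn and Mycl stretches held 1 CACCC each. The Sox2 and Klf4 stretches contained 72.0% and 74.0% G or C, above the median of 52.4% over all promoters. These matches describe letters in a window, and nothing was measured at these sites.

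Signals are log2 values from RMA (robust multi-array average), and the median of all values on the 4 arrays was 6.67. With 1 array a population there is no spread between replicates, so the differences could not be set against replicate error, no test was run, and precision is limited by the number of arrays. Calls of higher or lower need a difference of at least 4-fold (2 log2 units), or where stated 2-fold, and a brighter signal at or above 6.67. Against their labels, all 26 measured club cell markers were at or above 6.67 at Day0, but most markers of some other lung cells were too. These were 29 of 30 ciliated, 17 of 17 alveolar type 2 and 14 of 16 alveolar type 1 markers. Fewer were so bright in the other lists: 6 of 14 basal, 8 of 27 fibroblast, 9 of 25 leukocyte and 2 of 20 endothelial markers. The median signal of the Day0 array was 6.60. At 3w+Dox and in withdrawn cells, 26 of 27 fibroblast markers were at least 4-fold above Day0, and 11 of 25 leukocyte markers were. Of all named genes, 4.31% were called higher at 3w+Dox and 4.05% in withdrawn cells. Which cells made these signals was not measured, and a mixture of cell types cannot be told apart from a change within the cells. In bulk RNA, fewer cells of a type and less RNA per cell cannot be told apart either.

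**Figure D1:**
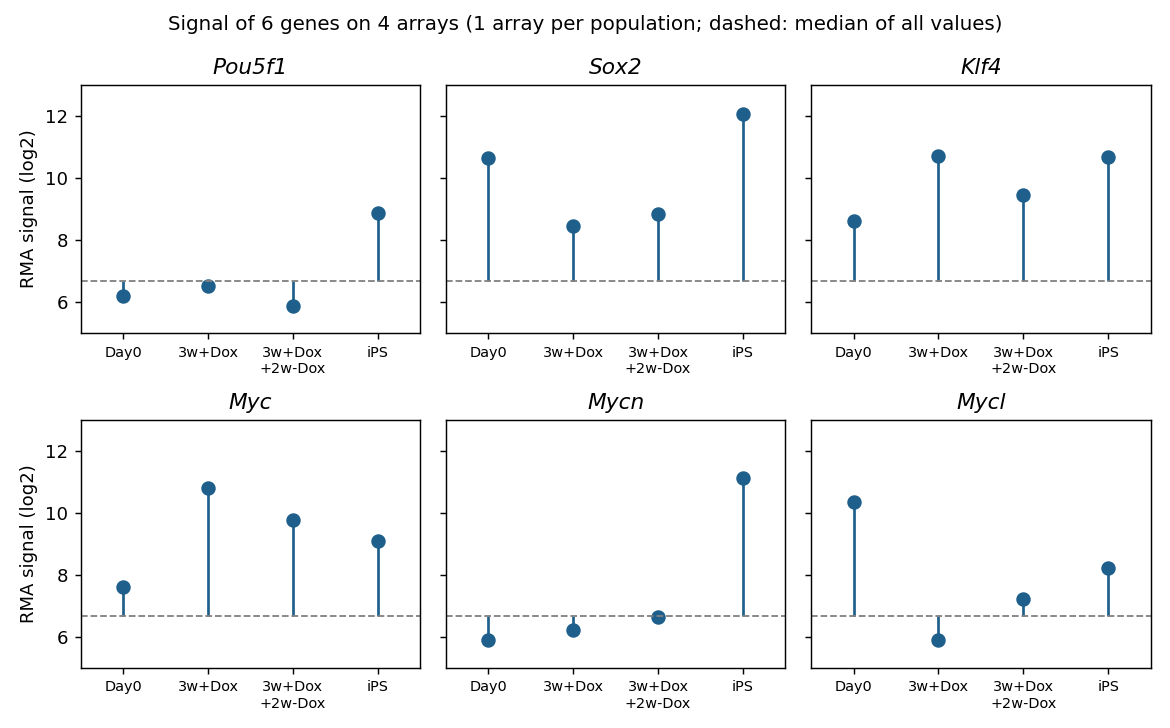
RMA signals (log2, vertical axis) of the 6 genes on the 4 arrays (horizontal axis), 1 point per array, with a stem to the dashed line at the median of all values, 6.67. Pou5f1 and Mycn lie above the line on the iPS array alone, Klf4 (by 0.05 over iPS) and Myc are highest at 3w+Dox, and Sox2 and Mycl are lowest there.

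The 4 factors named in reprogramming did not share a pattern over the populations. Pou5f1 and Sox2 were highest in iPS cells, Myc at 3w+Dox and Klf4 at 3w+Dox and in iPS cells alike, and at 3w+Dox Sox2 was lower than at Day0 while Klf4 and Myc were higher. Among the MYC genes the brightest array differed for each: 3w+Dox for Myc, iPS for Mycn and Day0 for Mycl.

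Pou5f1 was dim on the arrays of lung cells and cultures. Day0 gave a signal of 6.20, 3w+Dox 6.51, the withdrawn cells 5.87 and iPS cells 8.87. The first 3 of these lie below 6.67 and within 0.63 log2 units of each other, and the iPS signal stands 2.36 above the next one. At 3w+Dox the gene was 1.23-fold above Day0, a difference that 22.8% of named genes matched or exceeded in the same direction. In iPS cells it was 6.34-fold above Day0, 5.14-fold above 3w+Dox and 7.98-fold above withdrawn cells. The dimmer signals lie below the median of all values, and no background level was measured on these arrays.

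Of 10 other measured POU factors, 0 were at least 4-fold from Day0 at 3w+Dox, with a median difference of 0.06, beside -0.09 over all named genes. Pou3f4, a neural POU factor, was the one member past 2-fold, higher by 1.01 (16.2% of named genes passed 2-fold in either direction). In iPS cells 2 of 10 were at least 4-fold above Day0, beside 4.89% of named genes. Pou2f3, the factor of tuft cells, gave 5.41 at Day0, 5.59 at 3w+Dox, 4.77 after withdrawal and 7.74 in iPS cells. Pou3f1, also called Oct6, read 5.98, 5.92, 6.26 and 7.99 on the same arrays. The iPS difference from Day0 was 2.67 for Pou5f1, 2.32 for Pou2f3 and 2.01 for Pou3f1. The last pair was named because it was called on the iPS array, so the shared array is no finding.

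Sox2 was bright on every array and lowest in the doxycycline culture. The Day0 signal was 10.65, followed by 8.44 at 3w+Dox, 8.85 after withdrawal and 12.07 in iPS cells. Both cultures thus stood below the isolate and below the iPS cells, by at least 1.80 log2 units. Sox2 was 4.64-fold lower at 3w+Dox than at Day0, and 2.42% of named genes were as far or farther in that direction. After withdrawal 18.6% of this difference was undone, and the gene was still 3.49-fold below Day0. The iPS signal was 2.67-fold above Day0, 12.4-fold above 3w+Dox and 9.32-fold above withdrawn cells.

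Markers of the airway cells that make Sox2 were lower on the same arrays. At 3w+Dox, 17 of 26 club cell markers and 27 of 30 ciliated cell markers were at least 4-fold below Day0, beside 2.88% of named genes. The mean log2 level of the ciliated list was 9.49 at Day0, 6.24 at 3w+Dox, 8.01 after withdrawal and 6.11 in iPS cells. That of the club list was 12.4, 9.03, 9.98 and 5.76. Both marker means were higher after withdrawal than at 3w+Dox and both were lower in iPS cells than in withdrawn cells, whereas Sox2 was highest in iPS cells. The part of these cells in the Sox2 signal was not tested.

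Of 18 other SOX factors, 1 was called higher (5.56%, beside 4.31% of named genes) and 0 lower (beside 2.88%) at 3w+Dox against Day0, with a median difference of 0.06. These counts are near the background. Sox9, which acts in cartilage and in the tips of lung buds, stood at 7.18 at Day0, 9.47 at 3w+Dox, 9.13 after withdrawal and 7.46 in iPS cells. Its order over the arrays was opposite to that of Sox2 in the cultures, being high where Sox2 was low. Past 2-fold at 3w+Dox were also Sox4, higher by 1.55, Sox11, higher by 1.43, and Sox6 at -1.63. In iPS cells Sox15, a SOX factor known from mouse pluripotent cells, read 9.92 against 6.07 at Day0, 5.72 at 3w+Dox and 5.77 after withdrawal, and Sox6 was at -2.41 against Day0. Sox1 and Sox3, the closest relatives of Sox2, read 5.24 and 6.22 at Day0 and 6.91 and 6.68 in iPS cells, near the median of all values. They and the genes past 2-fold only were picked out after their values were seen.

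Klf4 was higher in the doxycycline culture and in iPS cells than at Day0, by nearly the same amount. Its signal was 8.60 at Day0, 10.72 at 3w+Dox, 9.44 after withdrawal and 10.67 in iPS cells. The brightest pair of arrays, 3w+Dox and iPS, differ by 0.05 log2 units, and withdrawn cells lie between them and Day0. The 3w+Dox signal was 4.34-fold above Day0, and 4.07% of named genes were as far or farther in that direction. After withdrawal 60.6% of the difference was undone, leaving Klf4 1.78-fold above Day0, below the 2-fold mark. The iPS signal was 4.18-fold above Day0 and 2.34-fold above withdrawn cells.

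Squamous barrier genes, which Klf4 is known to serve in skin, also peaked in part on the 3w+Dox array. At least 4-fold above Day0 were 8 of 19 members (42.1%, beside 4.31% of named genes), among them Sprr2a3, a cornified envelope protein, which gave 5.14 at Day0, 11.73 at 3w+Dox, 6.97 after withdrawal and 4.77 in iPS cells. Krt13, a keratin of stratified epithelia, read 5.96, 10.92, 5.54 and 5.43. The list median at 3w+Dox against Day0 was 0.74, and 7 of the 19 read below Day0. Past 2-fold lower were Krt4 at -1.91 and Rptn at -1.56 (10.5%, beside 7.52% of named genes). In iPS cells, where Klf4 was as bright as at 3w+Dox, 0 of the 19 were at least 4-fold above Day0 and 2 were lower. Of all named genes, 4.89% were called higher and 5.90% lower in that comparison. Fibroblast markers differed on the arrays with high Klf4 too, with a mean log2 level of 6.29 at Day0, 11.3 in both cultures of lung cells, and 9.11 in iPS cells. Their part in the Klf4 signal was not tested.

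Of 16 other KLF factors, 0 were called higher (beside 4.31% of named genes) and 1 lower (6.25%, beside 2.88%) at 3w+Dox against Day0, with a median of -0.14. The lower count rests on 1 gene. Klf15, a factor of glucocorticoid and metabolic responses, stood at 10.48 at Day0, 5.99 at 3w+Dox, 6.50 after withdrawal and 8.35 in iPS cells. Klf15 was thus highest at Day0 and lowest at 3w+Dox, where Klf4 was lowest and highest. Klf8 was the one other KLF gene at least 4-fold above Day0 in iPS cells, at 6.57, 6.96, 6.87 and 10.03. That share of 6.25% is near the background of 4.89% of named genes. Klf2 and Klf5, which act beside Klf4 in embryonic stem cells, did not move with it in the cultures. Klf5 gave 11.98 at Day0, 10.10 at 3w+Dox, 10.57 after withdrawal and 11.97 in iPS cells. Klf2 read 8.44, 8.06, 8.45 and 9.81, and this pair was picked out after the values were seen.

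**Figure D2:**
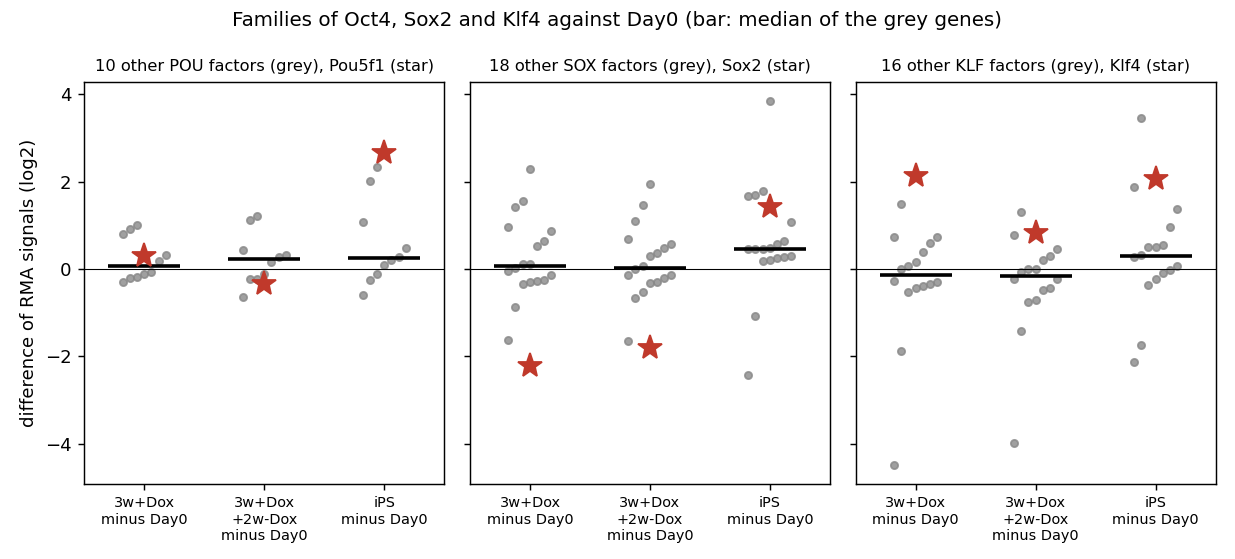
Difference from Day0 (log2, vertical axis) of 3w+Dox, withdrawn and iPS cells (horizontal axis) for Pou5f1, Sox2 and Klf4 (red stars) and the other measured members of their families (grey points, 10 POU, 18 SOX and 16 KLF genes), with the median of the grey points as a bar. At 3w+Dox the star of Sox2 (-2.21) lies below all other SOX genes and that of Klf4 (2.12) above all other KLF genes.

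Myc was highest in the doxycycline culture and lowest at Day0. The isolate gave 7.62, the 3w+Dox culture 10.79, withdrawn cells 9.75 and iPS cells 9.09. Every culture was above the isolate, and iPS cells were the lowest of the cultures. The 3w+Dox signal was 9.02-fold above Day0, the largest increase of the 6 genes in that comparison, and 1.96% of named genes were as far or farther in that direction. After withdrawal 32.8% of the difference was undone and Myc was 4.39-fold above Day0. In iPS cells it was 2.78-fold above Day0 and 3.25-fold below 3w+Dox. Fibroblast markers, whose levels are given above, were also higher on every other array than at Day0. Their mean was 11.3 both at 3w+Dox and after withdrawal, arrays between which Myc differed. The part of fibroblasts in the Myc signal was not tested.

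Mycn was above the median of all values on the iPS array only. Day0 gave 5.88, 3w+Dox 6.20, withdrawn cells 6.63 and iPS cells 11.12. The first 3 signals are below 6.67, and the fourth stands 4.48 log2 units above the nearest of them. Mycn in iPS cells was 37.6-fold above Day0, 30.1-fold above 3w+Dox and 22.4-fold above withdrawn cells, in each case against a signal below the median of all values. Only 0.254% of named genes were as far or farther above Day0 in iPS cells, 59 genes with Mycn counted.

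Mycl had its highest signal in the isolate and its lowest in the doxycycline culture. The isolate gave 10.36, the 3w+Dox culture 5.90, withdrawn cells 7.22 and iPS cells 8.21. Day0 thus stood 2.15 log2 units above the next array, and 3w+Dox was the only array below 6.67. Mycl was 22.0-fold lower at 3w+Dox than at Day0, and 51 named genes (0.220%) were as far or farther in that direction, with a 3w+Dox signal below the median of all values. After withdrawal 29.7% of the difference was undone and Mycl stood 1.32 log2 units above 3w+Dox, the largest increase of the 6 genes between those arrays, yet 8.80-fold below Day0. In iPS cells it was 4.44-fold below Day0 and 4.96-fold above 3w+Dox. Club and ciliated cell markers, whose levels are given above, were also lower at 3w+Dox and partly higher after withdrawal. Both marker means were lowest in iPS cells (5.76 and 6.11), whereas Mycl was higher there than at 3w+Dox and after withdrawal. The part of these cells in the Mycl signal was not tested.

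Partners of MYC and its rivals for MAX were counted next. Of 11 genes of the MAX and MLX network, 0 were at least 4-fold from Day0 at 3w+Dox, beside 7.19% of named genes, a count near the background, with a median of 0.11. Max itself, the obligate partner, had signals of 10.55 at Day0, 11.28 at 3w+Dox, 10.29 after withdrawal and 10.38 in iPS cells. Mxd1, a MAX partner that represses E-box genes, read 9.65, 10.69, 9.23 and 8.05 and thus had its highest signal on the same array as Myc. Mxd4, another such repressor, was the one gene of the network at least 4-fold from Day0 in iPS cells, at 10.22, 9.66, 9.31 and 6.53. This share of 9.09% is near the background of 10.8% of named genes. Both repressors were at least 4-fold lower in iPS cells than at 3w+Dox, Mxd1 at -2.64 and Mxd4 at -3.13. They make 18.2% of the network, beside 5.16% of named genes lower in that comparison. Max, and Mxd1 outside that comparison, were picked out after their values were seen.

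**Figure D3:**
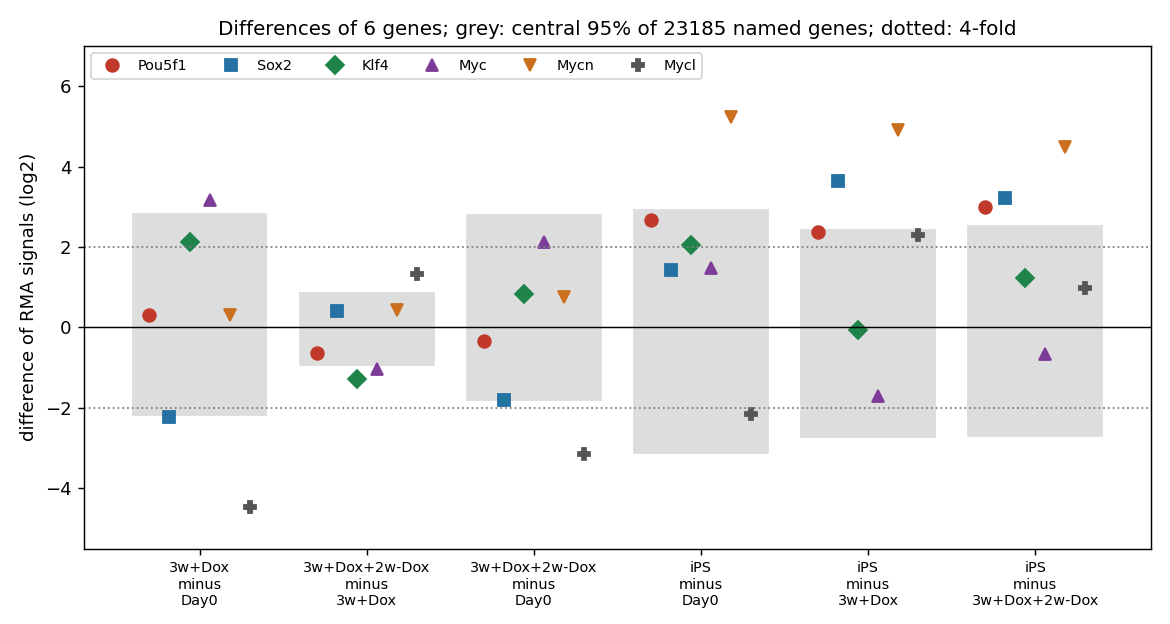
Differences of log2 signals (vertical axis) of the 6 genes in the 6 pairs of arrays (horizontal axis), 1 symbol per gene, over grey boxes that hold the central 95% of all 23185 named genes, with dotted lines at 4-fold. At 3w+Dox against Day0 the symbols spread from -4.46 (Mycl) to 3.17 (Myc), and Mycn leaves the grey box upward in every comparison with iPS cells.

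The question put by 3w+Dox against Day0 is what the population had become after 3 weeks of culture with the drug. Day0 cells were not cultured, and no array holds cells cultured for 3 weeks without doxycycline. Drug and culture therefore cannot be told apart. Of the 6 genes, Myc and Klf4 were at least 4-fold higher and Mycl and Sox2 at least 4-fold lower, while Pou5f1 and Mycn were within 2-fold, and their median difference was 0.31. Over all named genes 7.19% were called in either direction. Differences of Klf4 (2.12) and Sox2 (-2.21) stood close to the 2 log2 units that a call needs, and both lost the call at 8-fold.

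Withdrawal was compared with 3w+Dox to see what followed the removal of the drug, which cannot be told apart from 2 further weeks of culture. None of the 6 genes was called at 4-fold, where 0.772% of named genes were. At 2-fold (3.34% of named genes), Klf4 at -1.28 and Myc at -1.04 were lower and Mycl was higher by 1.32. All 4 genes that had been called at 3w+Dox stood nearer to Day0 after withdrawal than before it. Against Day0, 1 gene was at least 4-fold higher in withdrawn cells, Myc by 2.13, and 1 lower, Mycl at -3.14, beside 5.90% of named genes called in either direction. These comparisons share arrays, so their differences are not independent of each other.

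Pluripotent cells were compared with each of the other populations. In iPS cells 3 of the 6 genes were at least 4-fold above Day0 (Mycn by 5.23, Pou5f1 by 2.67 and Klf4 by 2.06) and Mycl was below it, beside 10.8% of named genes called. Sox2 and Myc passed 2-fold, higher by 1.42 and 1.47, as did 13.1% of named genes. Against 3w+Dox, 4 genes were higher (Mycn, Sox2, Pou5f1 and Mycl) and 0 lower, beside 8.73% of named genes. Against withdrawn cells 3 were higher (Mycn, Sox2 and Pou5f1) and 0 lower, beside 8.88%. Myc was the only one of the 6 that read lower in iPS cells than in both cultures, at -1.70 and -0.66, and the second of these is within 2-fold.

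Genes known to be bound and raised by Oct4 and Sox2 were higher in iPS cells and within 4-fold of Day0 in both cultures of lung cells. Of 30 measured targets, 28 (93.3%) were at least 4-fold above Day0 in iPS cells, with a median difference of 5.22, beside 4.89% of named genes and a median of 0.00. Utf1, a chromatin factor of pluripotent cells, gave 4.88 at Day0, 5.13 at 3w+Dox, 4.89 after withdrawal and 12.93 in iPS cells. Tdgf1, a co-receptor of Nodal, read 4.90, 5.79, 5.14 and 12.59. Nanog, the core factor that works with Oct4 and Sox2, was higher by 6.60 and Nr0b1, a nuclear receptor of embryonic stem cells, by 6.55. The members not called were Foxd3, higher by 1.75, and Dppa5a, a stem cell RNA-binding protein, which read 5.30 in iPS cells.

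At 3w+Dox 0 of these 30 targets were at least 4-fold from Day0 in either direction, with a median of 0.07 beside -0.09 over all named genes. Tet1, which oxidises methylated cytosine, was the one member past 2-fold (3.33%, beside 8.67% of named genes higher), at 5.76 and 6.97. In withdrawn cells 0 were past 2-fold against Day0, beside 15.6% of named genes, and the median was -0.08. Signals of Pou5f1 (6.51 and 5.87) and Sox2 (8.44 and 8.85) on these arrays were those given above, both at least 2.36 log2 units below the iPS signal. The targets were chosen as genes of pluripotent cells, so their high signals in iPS cells check that label and are not a separate result.

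MYC target genes were higher in iPS cells, the array on which Mycn was brightest and Myc was also above Day0. At 3w+Dox, the array on which Myc was brightest, most of them stayed within 2-fold of Day0. There, 2 of 53 targets (3.77%) were at least 4-fold above Day0, beside 4.31% of named genes. These were Mthfd2, a mitochondrial enzyme of one-carbon metabolism, at 6.47 and 9.58, and Ccnd2, which encodes cyclin D2, at 10.19 and 12.37. At 2-fold 5 targets were higher (9.43%) beside 8.67% of named genes, a share near the background. The median of the 53 was 0.18, beside -0.09 over all named genes. By any amount, 38 of them read above Day0, beside 9663 of 23185 named genes. In iPS cells 15 of 53 (28.3%) were above Day0 by 4-fold and 43 (81.1%) by 2-fold or more, beside 4.89% and 13.1% of named genes, with a median of 1.71. The largest iPS differences were those of Mthfd2 (3.87), Cad, which starts pyrimidine synthesis (3.24), Mcm5, a subunit of the replicative helicase (3.20), and Dctpp1, a nucleotide pyrophosphatase (3.17).

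Proliferation genes moved with the MYC targets on the iPS array. All 29 measured members were at least 2-fold above Day0 there, beside 13.1% of named genes, with a median of 3.72. At 3w+Dox 9 of 29 were, beside 8.67%, with a median of 0.67. Their part in the difference of the MYC targets was not tested. Genes that help MYC act or control its turnover showed a like order. Of 17 members, 0 were past 2-fold at 3w+Dox against Day0, beside 16.2% of named genes. In iPS cells 6 (35.3%) were higher by 4-fold and 12 (70.6%) by 2-fold or more, beside 4.89% and 13.1%. The 4 furthest were Aurka, a mitotic kinase that stabilises N-Myc, by 4.39, Cip2a, an inhibitor of the phosphatase that destabilises Myc, by 3.89, Usp28, a deubiquitinase of Myc, by 3.59, and Skp2, a ubiquitin ligase subunit, by 3.19.

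Genes known as repressed by MYC were for the most part higher than at Day0 on the arrays with the most Myc signal. At 3w+Dox 7 of 9 read above Day0 and 2 below it. Of these 2, Cebpa, a factor of secretory epithelium, was past 2-fold at -1.66, beside 7.52% of named genes lower. At 3w+Dox 5 of 9 were at least 4-fold higher than at Day0 and 0 lower, beside 4.31% and 2.88% of named genes, with a median of 2.24. The 4 largest were Ndrg1, a stress-response gene, at 6.88 and 12.21, Thbs1, a matrix glycoprotein, at 10.50 and 13.50, Gas1, a growth arrest protein, at 6.99 and 9.88, and Cdkn2b, the inhibitor p15, at 7.53 and 10.34. In withdrawn cells 5 of 9 were again at least 4-fold above Day0, beside 4.05% of named genes. In iPS cells 1 was higher (Thbs1) and 1 lower (Cebpa at -4.44), beside 4.89% and 5.90% of named genes. Each of these iPS counts rests on 1 gene. Fibroblast markers stood at a median of 5.00 above Day0 on the 3w+Dox array, and their part in these differences was not tested.

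**Figure D4:**
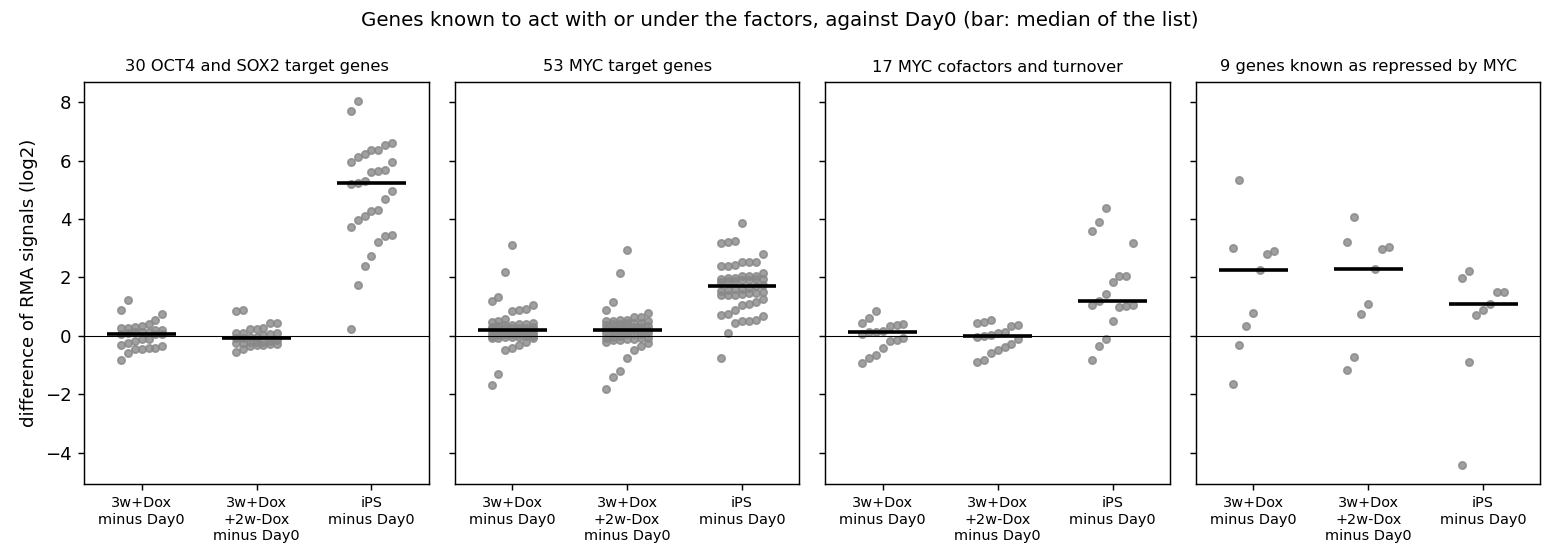
Difference from Day0 (log2, vertical axis) of 3w+Dox, withdrawn and iPS cells (horizontal axis) for 30 OCT4 and SOX2 targets, 53 MYC targets, 17 MYC cofactor and turnover genes and 9 genes known as repressed by MYC, 1 point per gene, with the list median as a bar. The medians of the first 3 lists lie near 0 in the cultures (0.07, 0.18 and 0.12 at 3w+Dox) and at 5.22, 1.71 and 1.19 in iPS cells, whereas that of the last list is 2.24 at 3w+Dox and 1.09 in iPS cells.

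Immediate early genes, the class of rapidly induced genes that includes Myc, were on the whole lower than at Day0 on arrays where Myc and Klf4 were higher. At 4-fold, 1 of 23 members was higher and 1 lower at 3w+Dox against Day0, beside 4.31% and 2.88% of named genes. At 2-fold, 2 were higher and 10 lower, beside 8.67% and 7.52%, with a median of -0.83. Ccn2, a matricellular protein also made by fibroblasts, was higher by 4.03 and had the same order over the arrays as Myc, at 8.86 at Day0, 12.89 at 3w+Dox, 12.76 after withdrawal and 11.02 in iPS cells. Fosl1, a partner of Jun, was higher by 1.98 at 3w+Dox and by 1.11 in iPS cells, and Atf3, a stress factor, was at -2.66 at 3w+Dox. In iPS cells 12 of 23 were at least 4-fold below Day0, beside 5.90% of named genes, with a median of -2.31. Myc and Klf4 were above Day0 on both of these arrays.

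For each of the 6 genes the named genes with the most similar pattern over the 4 arrays were found among 13142 candidates, by the root mean square difference of log2 signals after each gene was centred on its own mean. With 4 arrays, many genes can resemble each other, and no shared control follows from it. Nearest to Pou5f1 were Knstrn, a kinetochore protein (0.04), Asf1b, a histone chaperone (0.07), Prps1, a nucleotide synthesis enzyme (0.11), Nup107, a nuclear pore subunit (0.12), and Kif23, a kinesin of cytokinesis (0.13). Nearest to Sox2 were Phlda2 (0.20), an imprinted gene, Amt (0.20) of the glycine cleavage system, Mtmr7 (0.21), Shmt1 (0.25), which interconverts serine and glycine, and Pla2g1b (0.27), a secreted phospholipase. Shmt1 also stands in the list of MYC targets, and gave 9.09 at Day0, 7.39 at 3w+Dox, 7.28 after withdrawal and 10.99 in iPS cells.

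Klf4 was most like Itga6 (0.09), an integrin of basal epithelial and stem cells, which read 9.33, 11.50, 9.99 and 11.25 on the 4 arrays in the same order. Next came Ntn1, the guidance cue netrin (0.14), Phka2 (0.18), Trerf1 (0.18) and Sp6, a factor related to the KLF genes (0.18). The pattern of Myc was closest to those of Tenm4 (0.09), Car6, a secreted carbonic anhydrase (0.11), Crispld2 (0.16), Igf2, the imprinted growth factor (0.16), and Nuak1, a kinase (0.17). For Mycn the list opened with Sall1 (0.16), followed by Platr14 (0.18), Esco2, a cohesin acetyltransferase (0.18), Esrrb, a nuclear receptor of naive pluripotency (0.20), and Dazl, a germ cell RNA-binding protein (0.20). Mycl had no neighbour as close, the nearest being Gstm6, a glutathione transferase (0.31), Klf15 (0.36), Efcab10 (0.40), Npr1, a natriuretic peptide receptor (0.40), and Rab6b (0.40). Klf15 therefore appears both as the KLF gene furthest below Day0 and as a gene close to Mycl in pattern.

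The E-box letters shown for Klf4 were also counted before the starts of the MYC targets. Of 51 promoter entries of 44 of these genes, 11 (21.6%) held CACGTG within 250 bases, beside 6.02% of all promoters. Among 30 entries of 20 OCT4 and SOX2 targets, 3 (10.0%) held ATGCAAA, beside 4.12%, and 3 (10.0%) held ACAATG, beside 10.7%. The E-box list was drawn up from genes known to be bound by MYC, so this share describes the list.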

How the data were processed

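Total RNA of 4 mouse cell populations was purified on RNeasy columns and made into biotin-labelled target with an Ambion kit, per the labels' protocols, and each was hybridised to 1 Affymetrix array. Groups were read from the sample titles. The deposited table holds log2 signals (1.70 to 13.85). Per the submitters' processing notes, the authors used RMA, the affy package and R 3.0.2, and the values themselves show the log2 scale. Genome build and probe set annotation: not given in the sources used here. Of 25206 probe sets, the platform annotation named 23185 with 1 gene symbol each and 0 with several, and 2021 unnamed ones were left out. All 23185 gene IDs were in the RefSeq table (GRCm38.p6).

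With 1 array per group no test of a difference was possible. Differences of log2 signals were called at 2 log2 units (4-fold), with 1 log2 unit (2-fold) as a second rule, where the brighter signal reached the median of all values (6.67). Of 428 listed genes in 20 lists, 413 were measured, 3 under another symbol, and 15 were not matched. The 6 genes, the lists and the rule for named genes were chosen with earlier results of these data known. Named were the 6 genes, the 5 nearest in pattern to each whose range was at least 1 log2 unit (predicted and receptor-family genes left out), and up to 4 called members of each list described. Alternatives were 2-fold and 8-fold thresholds, no filter and a filter at the 75th percentile (8.82), a second quantile normalization, centring on brighter genes, values raised to the 25th percentile (5.07), means over lists, and dim or shared list members left out. Calls were tested on simulated data. Python 3.11.15, numpy 2.4.6 and pandas 2.3.3 were used.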

Additional observations from a re-analysis of the deposited data

How the results depend on the processing

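Differences of the 6 genes were recomputed under a second quantile normalization or centring on brighter genes. All 72 kept their direction and their side of the 4-fold threshold, and the furthest shift was 0.12 log2 units. Both are mild checks, because RMA signals are already normalised and centring moves all genes of an array alike. Raising values below 5.07 could not move the differences, since every signal of the 6 genes lies above it. Counts of the 6 genes were equal in 70 of 84 recomputations and changed in 14, 13 of them at another fold threshold. With the filter at the 75th percentile, iPS against 3w+Dox gave 3 higher in place of 4. At 2-fold, 3w+Dox+2w-Dox against 3w+Dox gave 1 gene higher and 2 lower in place of 0 and 0, withdrawn cells against Day0 gave 2 lower in place of 1, iPS against Day0 gave 5 higher in place of 3, iPS against 3w+Dox gave 1 lower in place of 0, and iPS against withdrawn cells gave 4 higher in place of 3. At 8-fold, 3w+Dox against Day0 gave 1 higher and 1 lower in place of 2 and 2, withdrawn cells against Day0 gave 0 higher in place of 1, iPS against Day0 gave 1 higher and 0 lower in place of 3 and 1, iPS against 3w+Dox gave 2 higher in place of 4, and iPS against withdrawn cells gave 2 higher in place of 3. The changes at 2-fold and 8-fold follow from the threshold itself. Of the recomputed list medians, 640 kept their direction and their side of 2-fold, 7 passed it, 3 no longer did, and 34 with a median under 2-fold changed sign or became 0. The median of the genes known as repressed by MYC in iPS cells against Day0, 1.09, was 0.50 as a mean. No paired analysis was possible because each group has 1 array. No background level was measured, so how far signals of Pou5f1, Mycn and Mycl below 6.67 stand above it is not known.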
